A study of Mus musculus with 8 samples.

Results

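The nuclear receptors PXR (pregnane X receptor, gene Nr1i2) and CAR (constitutive androstane receptor, gene Nr1i3) were followed together with 8 cytochrome P450 genes of the Cyp2b, Cyp2a and Cyp3a subfamilies. These 10 genes were found by symbol among the 52636 genes of the count tables, and all 10 were matched. They were listed for their function and chosen by how their counts differed between AAV8-AGXT and AAV8-GFP mice in earlier results of these data, so that the difference between the groups in each of them is a description. Whether a gene passed the threshold of the fit over all genes is stated for completeness and is no independent test of it.

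Both receptors are ligand-activated transcription factors of hepatocytes. CAR is held in the cytoplasm until it is released by phenobarbital-like compounds, and PXR binds a wide range of drugs, steroids and bile acids. In the nucleus each pairs with the retinoid X receptor and binds paired hexamers of DNA in the control regions of genes for oxidation, conjugation and export of foreign and endogenous compounds. Cyp2b10 is the classical CAR target of mouse liver and Cyp3a11 the classical PXR target, while the Cyp2a, Cyp2b9 and Cyp2b13 genes also differ between the sexes of the mouse.

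Liver RNA was sequenced from 8 male wild-type C57BL/6J mice, of which 4 received AAV8-TBG-GFP and 4 received AAV8-TBG-AGXT. AAV8 (adeno-associated virus of serotype 8) carries a gene to liver cells, and the TBG promoter limits expression of its cargo to hepatocytes. AGXT encodes alanine-glyoxylate aminotransferase, which detoxifies glyoxylate, and GFP served as the control cargo. Virus was given intraperitoneally when the mice were 7 weeks old, and all 8 ate the MASH (metabolic dysfunction-associated steatohepatitis) diet, rich in fat, fructose and cholesterol, from 8 weeks of age for 24 weeks. Each library came from 1 animal and carries its number. The AAV8-GFP animals were 303, 311, 314 and 315, and those given AAV8-AGXT were 308, 309, 316 and 319. There was no group without virus or on standard chow among these libraries.

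Read pairs counted on genes ranged from 19747909 to 28780140 in AAV8-GFP and from 17095433 to 23940200 in AAV8-AGXT mice (two-sided exact permutation test, n = 4 each, p = 0.171). The scaling factors that the TMM method added to these totals were 1.02 to 1.14 in AAV8-GFP and 0.83 to 1.00 in AAV8-AGXT mice. Expression is given in CPM (counts-per-million pairs on genes) after this scaling. Log2 fold changes are AAV8-AGXT over AAV8-GFP from edgeR's quasi-likelihood fit, with their standard error (SE), and a gene was called at a Benjamini-Hochberg adjusted p under 0.05 over all 15248 genes tested. Summed markers of hepatocytes were between 60003 and 69465 CPM in AAV8-GFP and between 70677 and 98992 CPM in AAV8-AGXT mice, with all 7 of the markers found in the tables present in each library. The livers were male throughout, with Xist at no more than 0.265 CPM. The tables count mouse genes, so human AGXT was not measured. Mouse Agxt, which is no measure of the injected cargo, was between 148.3 and 179.9 CPM in AAV8-GFP and between 201 and 405 CPM in AAV8-AGXT mice. It was called higher, with a log2 fold change of 0.90 (adjusted p = 0.0489, edgeR's quasi-likelihood test). Whether pairs from the human cargo were counted on it was not tested.

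The regions upstream of the Cyp2a pair and of the Cyp3a11 and Cyp3a25 genes are shown first, because members of these subfamilies differed from each other in the direction of their means. Each window runs from 250 bases before to 50 bases after the start of the gene in RefSeq on GRCm38.p6, 5′ to 3′ on the strand of the gene, and all 10 genes had such a window. In the Cyp2a4 and Cyp2a5 windows the capitals mark the bases that differ between these genes. They are found at chr7:26306942-26307241 for Cyp2a4 and chr7:26835089-26835388 for Cyp2a5, both on the plus strand.
Cyp2a4: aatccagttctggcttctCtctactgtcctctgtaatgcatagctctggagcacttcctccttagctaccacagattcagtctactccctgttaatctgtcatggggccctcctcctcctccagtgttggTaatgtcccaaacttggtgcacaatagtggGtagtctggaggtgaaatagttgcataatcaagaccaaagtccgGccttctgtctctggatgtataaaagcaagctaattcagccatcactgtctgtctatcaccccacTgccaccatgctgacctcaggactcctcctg
Cyp2a5: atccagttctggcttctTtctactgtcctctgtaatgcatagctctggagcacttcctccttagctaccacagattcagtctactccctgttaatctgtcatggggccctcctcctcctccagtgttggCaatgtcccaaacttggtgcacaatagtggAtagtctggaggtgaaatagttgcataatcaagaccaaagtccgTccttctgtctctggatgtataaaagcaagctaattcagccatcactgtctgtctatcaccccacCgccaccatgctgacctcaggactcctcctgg

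The windows of Cyp2a4 and Cyp2a5 matched at 294 of 299 aligned bases, or 98.3%. The 5 differences, counted from 1 at the 5′ end of the Cyp2a4 window with the Cyp2a4 base first, were C19T, T131C, G161A, G205T and T270C. The last of these lies after the start of the gene. Both windows held the C/EBP-type motif TTGCATAA and the HNF4-type motif CAAAGTCC, which on either strand occurred in 0.743% and 1.42% of the 32851 windows of the RefSeq table. Neither motif contained one of the differing bases.

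In the Cyp3a11 and Cyp3a25 windows the capitals mark the nuclear receptor hexamers AGGTCA and AGTTCA on either strand, and in Cyp3a11 also CAAAGTCC. Both genes lie on the minus strand, Cyp3a11 with its window at chr5:145879805-145880104 and Cyp3a25 at chr5:146009569-146009868.
Cyp3a11: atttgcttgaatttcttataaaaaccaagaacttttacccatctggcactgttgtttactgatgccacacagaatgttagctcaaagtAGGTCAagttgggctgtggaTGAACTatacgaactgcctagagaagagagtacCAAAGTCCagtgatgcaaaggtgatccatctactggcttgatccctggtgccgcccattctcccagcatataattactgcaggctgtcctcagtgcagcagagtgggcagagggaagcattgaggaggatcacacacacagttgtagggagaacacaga
Cyp3a25: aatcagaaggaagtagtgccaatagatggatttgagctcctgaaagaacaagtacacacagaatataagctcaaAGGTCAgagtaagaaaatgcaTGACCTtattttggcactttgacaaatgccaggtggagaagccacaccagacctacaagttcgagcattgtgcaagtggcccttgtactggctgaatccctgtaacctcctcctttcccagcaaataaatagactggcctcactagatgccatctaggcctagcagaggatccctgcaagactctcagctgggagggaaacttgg

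The hexamer AGGTCA was present in the windows of 6 of the 10 genes and in 16.3% of all windows, and AGTTCA was present in that of Cyp3a11 and in 14% of all windows. These 6 are not independent, since Cyp2a4 with Cyp2a5 and Cyp2b9 with Cyp2b13 have windows 98.3% and 99.3% identical. In the Cyp2a pair the hexamer lay after the start of the gene. Direct repeats of these hexamers 3 to 5 bases apart occurred in 0.0791% of all windows, and everted repeats 6 to 8 bases apart in 0.0304%. No such repeat lay in the windows of the 10 genes, which says only that these letters were not found within them.

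Of the receptors, Nr1i3 had a higher mean in mice treated with AAV8-AGXT, whereas the values of Nr1i2 overlapped widely. Nr1i2 (ENSMUSG00000022809, chromosome 16, 38248323 to 38294824) was at 87.2, 128.8, 109.3 and 135.8 CPM in AAV8-GFP mice 303, 311, 314 and 315. In AAV8-AGXT mice 308, 309, 316 and 319 it was at 131.4, 103.4, 125.1 and 138.0 CPM. The groups overlapped, with a log2 fold change of 0.11 (SE 0.15), which became -0.13 with library totals in place of TMM scaling. The coefficient of variation of PXR mRNA between the mice was 18.9% in the AAV8-GFP and 12.1% in the AAV8-AGXT group.

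Nr1i3 (ENSMUSG00000005677, chromosome 1, 171213970 to 171220701) was at 49.98, 24.0, 27.5 and 33.3 CPM in the AAV8-GFP mice in the same order. It was at 153.7, 42.6, 65.7 and 100.7 CPM in AAV8-AGXT mice 308, 309, 316 and 319. Thus 3 of the 4 AAV8-AGXT mice were above every AAV8-GFP mouse, and mouse 309 lay below AAV8-GFP mouse 303. The mean of Nr1i3 was 33.7 ± 11.5 CPM under AAV8-GFP and 90.7 ± 48.3 CPM under AAV8-AGXT (SD, n = 4 each). It was not called, with a log2 fold change of 1.43 (SE 0.37), although it was without mouse 309, at 1.63 (SE 0.31), by DESeq2, and without a filter on low counts, at 1.39. In bulk liver RNA a change in the number of cells of a type and a change in RNA per cell cannot be told apart.

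Nr1i3 shares 3304 exon bases with Tomm40l, a gene for a mitochondrial import protein on the opposite strand, and 40.8% of the 67-base windows of the main Nr1i3 transcript are also found in Tomm40l. The library kit marks strand but the setting used in counting is not stated, so that the count of Nr1i3 is uncertain. Tomm40l was at 8.63 to 16.3 CPM in AAV8-GFP and 9.98 to 29.3 CPM in AAV8-AGXT mice, with mouse 308 highest for both genes. The ratio of Nr1i3 to Tomm40l was 2.78 to 3.16 in AAV8-GFP and 4.15 to 5.27 in AAV8-AGXT mice, without overlap.

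**Figure D1:**
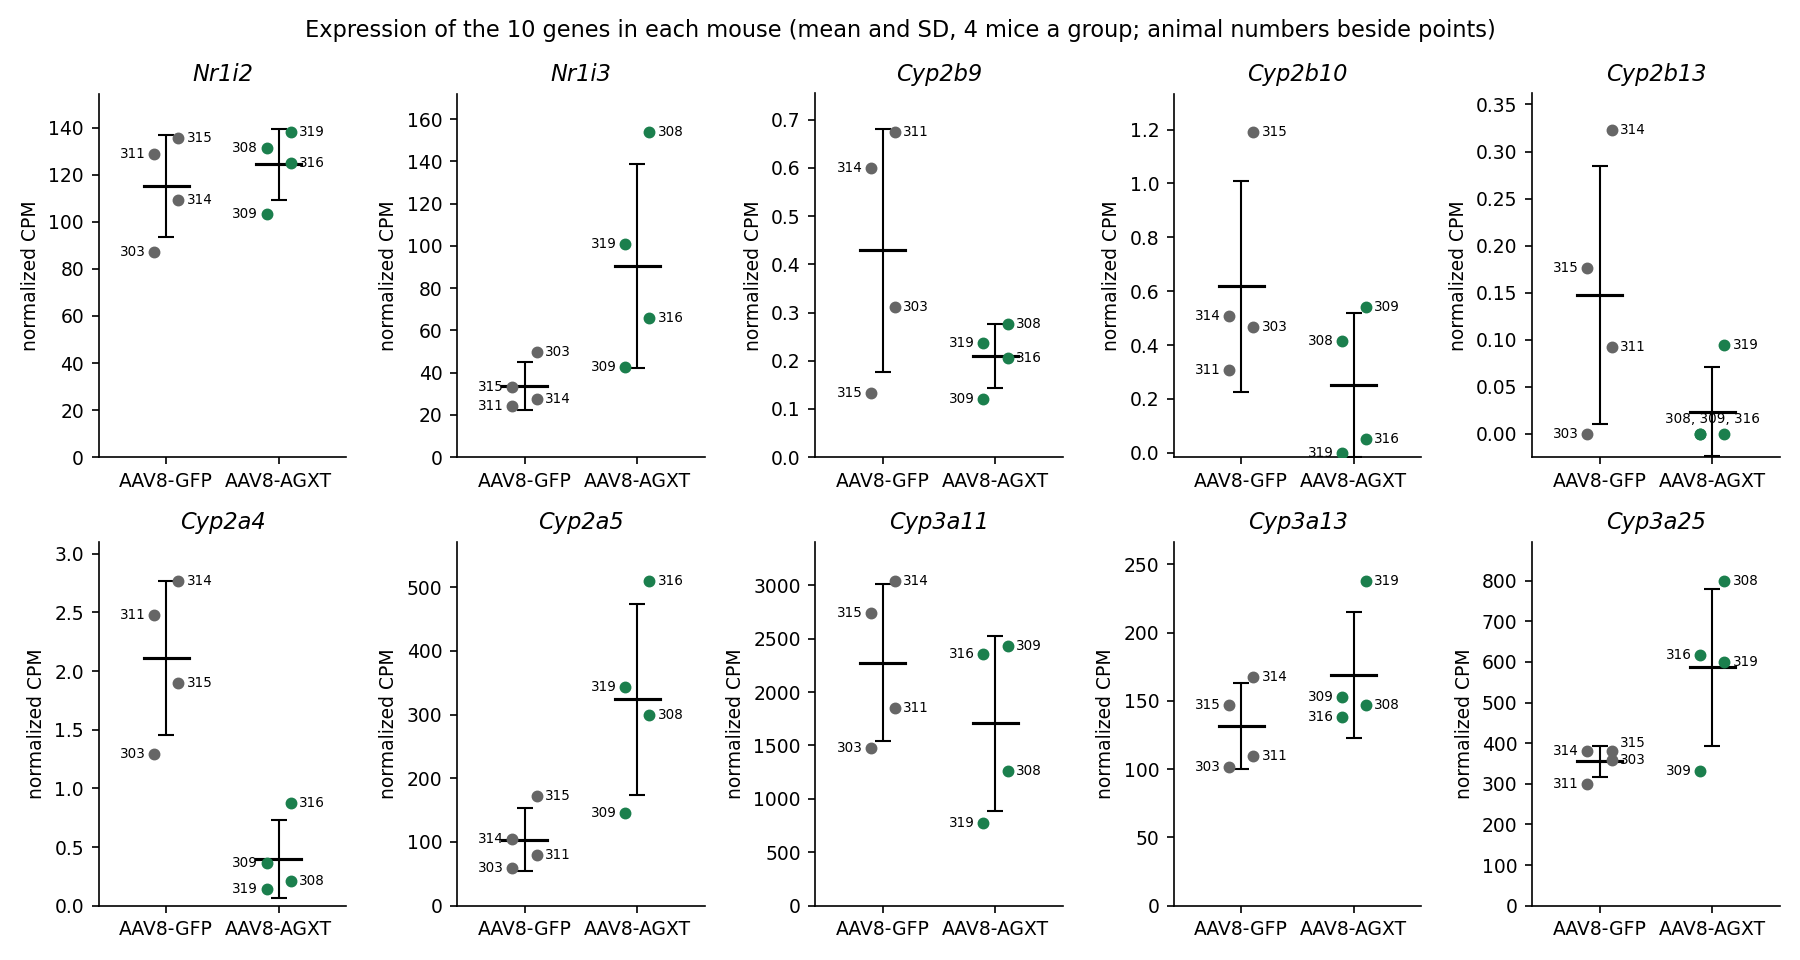
Normalized counts (CPM, linear axes that differ between panels) of the 10 genes in each mouse, with animal numbers beside the points, the mean as a horizontal line and the SD as a vertical bar, 4 mice a group. Cyp2a4 was the single gene without overlap among the 8 tested, and the AAV8-AGXT mice spread from 42.6 to 153.7 CPM for Nr1i3 and from 777 to 2433 CPM for Cyp3a11. For Cyp2b13, AAV8-AGXT mice 308, 309 and 316 lie together at 0.

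Of the 10 genes, 8 passed the filter on low counts and were tested, and 2 of these 8 were called, Cyp2a5 higher and Cyp2a4 lower. Among all genes tested 4.35% were called, 2.45% higher and 1.9% lower in AAV8-AGXT mice, and since the 10 genes were chosen with this contrast in view, nothing is read from their count. The groups did not overlap in 1 of the 8, Cyp2a4, against 16.6% of all genes tested. In 5 of the 8 the mean was higher in AAV8-AGXT mice and in 3 it was lower, with a median log2 fold change of 0.24, where the median over all genes tested was 0.018. Nr1i2 was one of the 5, and with library totals its sign turned. That scaling moved the median of all genes tested to -0.22.

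**Figure D2:**
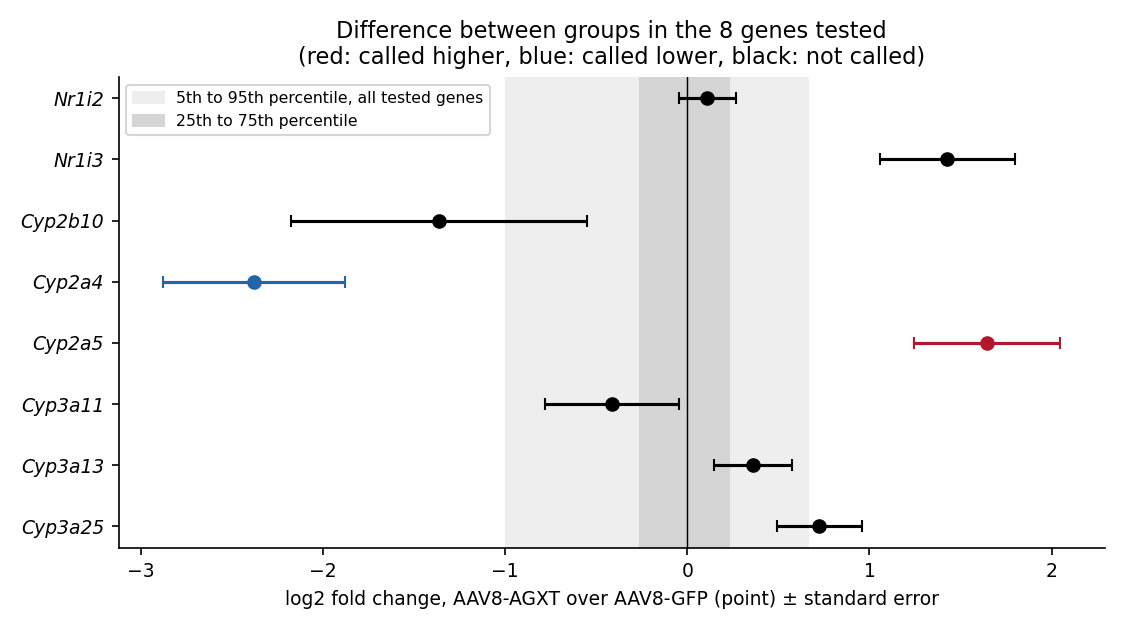
Log2 fold change of AAV8-AGXT over AAV8-GFP (point) with its standard error (bar) for the 8 genes tested, over shaded bands that hold the middle of all 15248 genes tested (5th to 95th and 25th to 75th percentile). Cyp2a5, Nr1i3 and Cyp3a25 lie to the right of the outer band, at 1.65, 1.43 and 0.72, and Cyp2a4 and Cyp2b10 lie to its left, at -2.38 and -1.36.

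The Cyp2a pair moved apart, with Cyp2a5 higher and Cyp2a4 lower in mice treated with AAV8-AGXT. Cyp2a5 (ENSMUSG00000005547, chromosome 7, 26835305 to 26843548) encodes a coumarin hydroxylase that also oxidizes nicotine and bilirubin. It was at 59.3, 79.0, 104.5 and 172.1 CPM in AAV8-GFP mice 303, 311, 314 and 315. It was at 298.9, 145.8, 509.9 and 342.9 CPM in AAV8-AGXT mice 308, 309, 316 and 319. Mouse 309 was again the lowest of its group and lay under AAV8-GFP mouse 315, while the other 3 exceeded every AAV8-GFP mouse. The means were 103.7 ± 49.2 CPM and 324.4 ± 149.8 CPM (SD, n = 4 each), and the log2 fold change was 1.65 (SE 0.40).

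Cyp2a4 (ENSMUSG00000074254, chromosome 7, 26307169 to 26315088) encodes a steroid 15-alpha-hydroxylase and is more abundant in female than in male liver. It rested on few read pairs, 33, 81, 60 and 43 in AAV8-GFP mice 303, 311, 314 and 315 and 3, 6, 17 and 3 in AAV8-AGXT mice 308, 309, 316 and 319. These correspond to 1.29, 2.48, 2.77 and 1.90 CPM against 0.207, 0.361, 0.873 and 0.142 CPM. Every AAV8-AGXT mouse was below every AAV8-GFP mouse, with means of 2.11 ± 0.66 CPM and 0.396 ± 0.331 CPM (SD, n = 4 each) and a log2 fold change of -2.38 (SE 0.50). Cyp2a4 also shares 61 exon bases with Gm42375, an antisense gene.

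The coding sequences of Cyp2a4 and Cyp2a5 differ at 23 of 1482 bases (98.4% identity), and 26.4% of the 67-base windows of Cyp2a4 and 29.5% of those of Cyp2a5 occur in another gene. Counting set aside 17.4% to 23.4% of the read pairs of a library as not uniquely aligned, on no gene. How many of these fitted both Cyp2a genes is not given, so the separate values are uncertain. As a share of the read pairs on the pair of genes, Cyp2a4 made up 2.13%, 3.04%, 2.58% and 1.09% in AAV8-GFP mice 303, 311, 314 and 315. In AAV8-AGXT mice 308, 309, 316 and 319 it made up 0.0693%, 0.247%, 0.171% and 0.0413%. The lowest AAV8-GFP share, in mouse 315, had a 95% Wilson interval of 0.81% to 1.46%, and the highest AAV8-AGXT share, in mouse 309, one of 0.113% to 0.537%, which cover counting error only. The share of the scarcer paralog was thus lower in all 4 AAV8-AGXT mice than in any AAV8-GFP mouse, and it rests on the same counts as the values above.

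**Figure D3:**
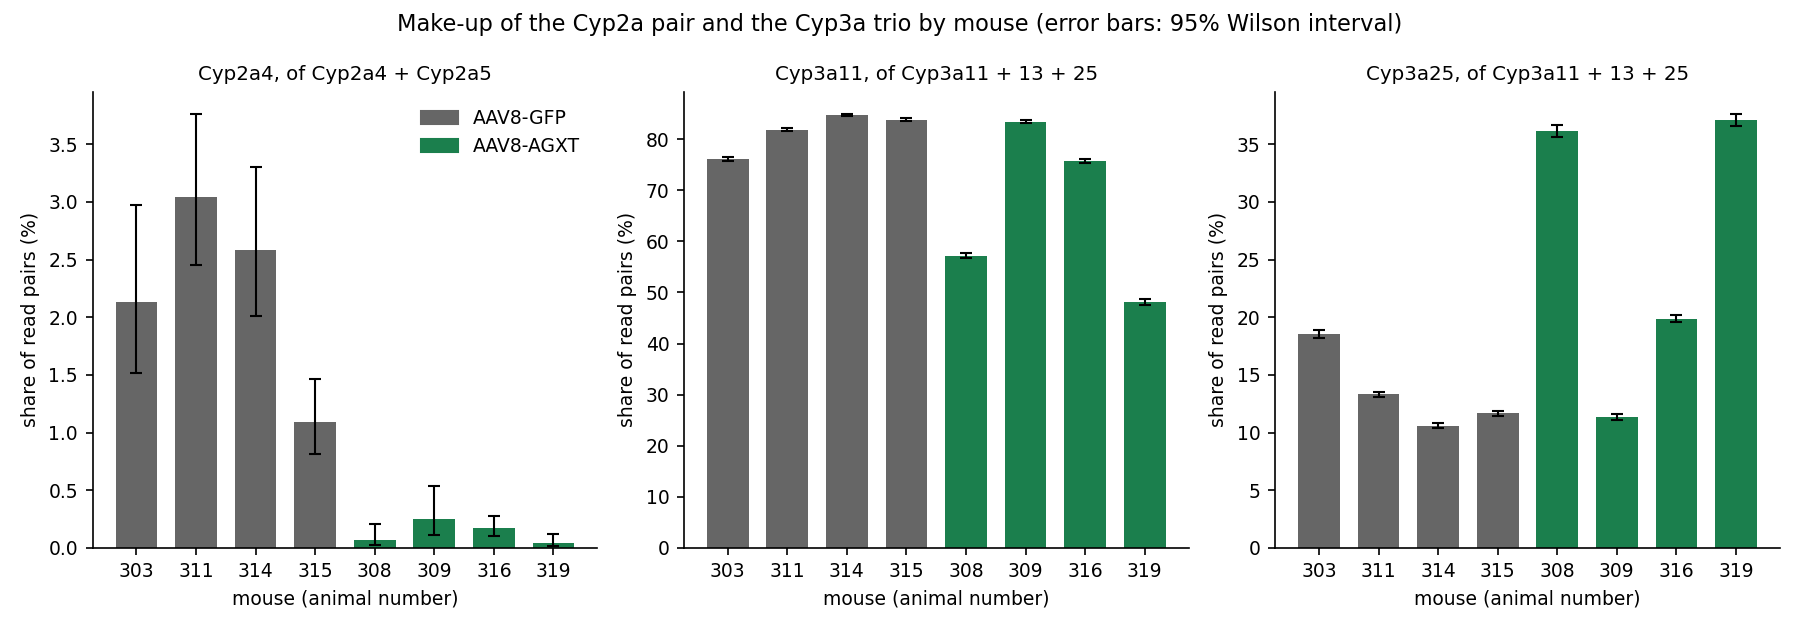
Share of read pairs (%, axes from 0) by mouse for Cyp2a4 among Cyp2a4 and Cyp2a5 (left), Cyp3a11 among the 3 Cyp3a genes (middle) and Cyp3a25 among the same 3 (right), with 95% Wilson intervals as bars. Cyp2a4 was at 1.09% or more in each AAV8-GFP mouse and at 0.247% or less in each AAV8-AGXT mouse, and Cyp3a11 was lowest at 57.2% in mouse 308 and 48.1% in mouse 319.

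Calls of the Cyp2a genes depended on single mice, as did those over all genes. Without mouse 303, 311, 314, 308 or 319 neither was called, without mouse 309 Cyp2a5 and not Cyp2a4 was, and without mouse 316 the reverse. Over all genes, 664 were called with every mouse, and 193, 2, 15, 177 and 14 without mouse 303, 311, 314, 308 or 319. The log2 fold changes in these fits were between 1.34 and 2.01 for Cyp2a5 and between -3.15 and -2.07 for Cyp2a4.

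The Cyp3a genes, which encode the main steroid and drug hydroxylases of liver, had means on both sides of the controls. Cyp3a11 (ENSMUSG00000056035, chromosome 5, 145854426 to 145879964) was at 1474, 1848, 3040.5 and 2739 CPM in AAV8-GFP mice 303, 311, 314 and 315. It was at 1265, 2433, 2354 and 777 CPM in AAV8-AGXT mice 308, 309, 316 and 319. Mice 309 and 316 lay within the AAV8-GFP range and mice 308 and 319 lay below it, with a log2 fold change of -0.41 (SE 0.37), not called. Mice 308 and 319 were also those with the highest Nr1i3.

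Cyp3a25 (ENSMUSG00000029630, chromosome 5, 145977194 to 146009618) was at 359, 300.3, 379.6 and 381 CPM in AAV8-GFP mice 303, 311, 314 and 315. It was at 799, 331, 618 and 599 CPM in AAV8-AGXT mice 308, 309, 316 and 319. As with Nr1i3 and Cyp2a5, mouse 309 overlapped the controls and the other 3 exceeded them all. The log2 fold change was 0.72 (SE 0.23), and the gene was not called, although without mouse 309 it was, at 0.90. Its transcript shares 14.5% of its 67-base windows with other genes, nearly all with its neighbour Cyp3a59, so its count is uncertain to that extent.

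Cyp3a13 (ENSMUSG00000029727, chromosome 5, 137892932 to 137921619) lies apart from the others on the chromosome and shares no such window with another gene. It was at 101.6, 109.8, 167.9 and 146.9 CPM in AAV8-GFP mice 303, 311, 314 and 315 and at 147.3, 152.7, 138.1 and 237.8 CPM in AAV8-AGXT mice 308, 309, 316 and 319. The groups overlapped, with mouse 319 the sole AAV8-AGXT animal above the AAV8-GFP range, and the log2 fold change was 0.36 (SE 0.21).

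Within the Cyp3a trio, Cyp3a11 took 76.2% to 84.7% of the read pairs in AAV8-GFP mice. It took 83.4% and 75.7% in AAV8-AGXT mice 309 and 316 but 57.2% and 48.1% in mice 308 and 319. Cyp3a25 made up the difference for the most part, at 10.6% to 18.6% in AAV8-GFP mice and 36.1%, 11.3%, 19.9% and 37.1% in AAV8-AGXT mice 308, 309, 316 and 319. The AAV8-AGXT group was thus heterogeneous in this respect. Coding sequences of the 3 genes were 76.1% to 76.8% identical, less alike than those of the Cyp2a pair.

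The Cyp2b genes, targets of CAR in phenobarbital-treated liver, were close to the limit of detection in every mouse. Cyp2b10 (ENSMUSG00000030483, chromosome 7, 25897620 to 25926624) had 12, 10, 11 and 27 read pairs in AAV8-GFP mice 303, 311, 314 and 315 and 6, 9, 1 and 0 in AAV8-AGXT mice 308, 309, 316 and 319. It was between 0.306 and 1.19 CPM in AAV8-GFP mice and no higher than 0.541 CPM in AAV8-AGXT mice, with overlap between the groups. A count of 0 in mouse 319 allows up to 3 read pairs, or 0.142 CPM. The log2 fold change of -1.36 had an SE of 0.81, and Cyp2b10 was not called.

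Cyp2b9 (ENSMUSG00000040660, chromosome 7, 26173411 to 26210661) and Cyp2b13 (ENSMUSG00000040583, chromosome 7, 26061497 to 26096197), both more abundant in female liver, had too few counts to be tested. Cyp2b9 had 8, 22, 13 and 3 read pairs in AAV8-GFP and 4, 2, 4 and 5 in AAV8-AGXT mice, in the order above. Cyp2b13 had 0, 3, 7 and 4 read pairs in AAV8-GFP and 0, 0, 0 and 2 in AAV8-AGXT mice. The groups overlapped for both. Their coding sequences are 92.7% identical, and read pairs not uniquely aligned were counted on no gene, so that these few counts are uncertain.

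To compare the genes with each other, read pairs were divided by the length of the main transcript and scaled to one common total per library (transcript abundance, TPM). In AAV8-GFP mice Cyp3a11 was highest, at 1825 TPM, followed without overlap by Cyp3a25 at 333 TPM. Cyp2a5, Nr1i2, Cyp3a13 and Nr1i3 followed at 95.8, 84.6, 83.6 and 44.4 TPM, where each overlapped its neighbour in that order. Cyp2a4 came next at 2.30 TPM, above the ranges of Cyp2b10, Cyp2b9 and Cyp2b13 at 0.593, 0.439 and 0.15 TPM, which overlapped in turn.

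In AAV8-AGXT mice the order of the highest 3 was the same, at 1201, 452 and 255 TPM, but their ranges now overlapped each other in turn. Nr1i3, at 96.2 TPM, stood beside Cyp3a13 at 90.4 TPM and Nr1i2 at 76.8 TPM, and these 3 and Cyp2a5 overlapped in turn. Cyp2a4, Cyp2b10 and Cyp2b9, all below 1 TPM, overlapped as well. Cyp2b13 was below Cyp2b9, on 0 to 2 read pairs against 2 to 5, which are too few to order them. The places of Nr1i2, Nr1i3 and Cyp3a13 among themselves also moved when the merged exon length was used in place of the main transcript.

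The genes whose profile over the 8 mice was most like that of Nr1i3 were found by the root mean square difference of mean-centred log2 CPM, with the 10 genes left out. They were Aatk, Lamb3, Acot4, Lgr5 and Retsat, at 0.22 to 0.277 against a median of 0.896 over all genes tested. For the sparse Cyp2b10 they were Flrt1, Trim45, Hist1h2be, Peg10 and Lmcd1, at 0.586 to 0.653 against 1.19. These distances describe the 8 libraries and include the difference between the groups.

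The partners and co-regulators of the receptors gave 1 call among 16 genes tested, with a median log2 fold change of 0.27. This list and those that follow, up to the sex-biased genes, were chosen with earlier results of these data known. Their calls and adjusted p-values are therefore a description and no independent test of a list. Over all genes tested 4.35% were called. The called gene was Cebpa, a transcription factor of differentiated hepatocytes, which rose from 352.6 ± 16.8 to 499.4 ± 39.2 CPM (SD, n = 4 each), or by 0.50 on the log2 scale (adjusted p = 0.0429, edgeR's quasi-likelihood test). Its 4 AAV8-AGXT values, 511.8, 537.5, 444.8 and 503.6 CPM, were all above the highest AAV8-GFP value of 375 CPM. The shared dimer partner Rxra was not called, at 352 ± 49.4 against 561 ± 106 CPM (SD, n = 4 each; adjusted p = 0.0502), and its groups did not overlap either. It is named after its values were seen.

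Electron transfer and haem supply, on which all microsomal P450 enzymes depend, gave 3 called genes among 12, all higher. As this list too was chosen with earlier results known, its share of calls is a description. Over all genes tested 2.45% were called higher. Por, the reductase that passes electrons to P450s, was at 266, 232, 299 and 218 CPM in AAV8-GFP and 736, 419, 601 and 773 CPM in AAV8-AGXT mice (log2 fold change 1.32, SE 0.20, adjusted p = 0.0246). Alas1, the rate-limiting enzyme of haem synthesis, was at 608, 691, 539.5 and 325 CPM against 928, 1492, 1093 and 1656 CPM (log2 fold change 1.26, SE 0.26, adjusted p = 0.0366). Cpox, a later enzyme of the same pathway, rose from 95.6 ± 19.5 to 176.9 ± 23.8 CPM (SD, n = 4 each; adjusted p = 0.0312). In all 3 the groups did not overlap, where 16.6% of all genes tested did not. Mouse 309 was lowest of its group for Por and second highest for Alas1. The other 9 genes were not called, and the median of the 12 was 0.23.

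Other genes induced through CAR or PXR went both ways, with 4 of 23 tested called higher and 2 called lower. Over all genes tested 2.45% were called higher and 1.9% lower. The median log2 fold change of the list was 0.36. Cyp2c37, a P450 that hydroxylates arachidonic acid, rose from 49.7 ± 11.2 to 242 ± 93.3 CPM (SD, n = 4 each), with a log2 fold change of 2.28 (adjusted p = 0.0112). Ugt1a1, the bilirubin glucuronosyltransferase, rose from 21.5 ± 5.02 to 41.9 ± 9.94 CPM (SD, n = 4 each; adjusted p = 0.0413), and Por and Alas1 also stand on this list. Ugt1a1 shares its last exons with the other Ugt1a genes, and Cyp2c37 has close paralogs, so both counts are uncertain. Gstm3, a glutathione transferase, fell from 88.5 ± 31.1 to 20.01 ± 12.6 CPM (SD, n = 4 each), with a log2 fold change of -2.14 (adjusted p = 0.0363). Gstm1 of the same family, named after its values were seen, had a log2 fold change of -0.74 (adjusted p = 0.0493). Akr1b7 had too few counts to be tested.

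Of 6 genes known to be repressed through CAR or PXR, 1 was called, with a median log2 fold change of 0.64, where 4.35% of all genes tested were called. The called gene was Cpt1a, the entry enzyme of mitochondrial fatty acid oxidation. It rose with a log2 fold change of 0.73 (adjusted p = 0.0374) and is also a PPARα target. The bile acid enzyme Cyp8b1, named after its values were seen, had the largest log2 fold change of the 6 (1.52). It was at 273 ± 228 against 783 ± 300.2 CPM (SD, n = 4 each) and was not called (adjusted p = 0.0883, edgeR's quasi-likelihood test). AAV8-GFP mouse 303 was at 615 CPM, where mice 311, 314 and 315 were at 165, 140 and 172 CPM. Without mouse 303 Cyp8b1 was called higher.

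Of the 10 other Cyp2a, Cyp2b and Cyp3a genes, 4 could be tested and edgeR called 0 of them, with 0 at an unadjusted p under 0.05 and 0 called by DESeq2 or limma-voom. Cyp2a12 was at 548 ± 89.6 and 665 ± 80.3 CPM and Cyp2a22 at 26.4 ± 7.20 and 21.7 ± 4.57 CPM in AAV8-GFP and AAV8-AGXT mice (SD, n = 4 each). Cyp3a59 was at 15.6 ± 2.98 and 24.0 ± 10.9 CPM and Cyp3a57 at 0.869 ± 0.211 and 0.582 ± 0.466 CPM. Cyp3a59 followed the pattern of its neighbour Cyp3a25, with 34.3, 10.04, 20.9 and 30.9 CPM in AAV8-AGXT mice 308, 309, 316 and 319, and was called without mouse 309. Cyp2b19 and Cyp2b23 had 0 counts in all mice, and Cyp3a16, Cyp3a41a, Cyp3a41b and Cyp3a44 had at most 4.

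Because Cyp2a4, Cyp2b9 and Cyp2b13 differ between the sexes, other sex-biased genes of liver were counted. The male-biased and female-biased lists were also chosen with earlier results known, so their shares of calls are a description. Of 17 male-biased genes, 6 were called higher, where 2.45% of all genes tested were called higher. The median log2 fold change of the list was 1.07, with 16 higher means and 1 lower. The lower mean was that of Mup20, named after its values were seen, at 3228 against 2082 CPM. Its log2 fold change was -0.63, and it was not called. Hsd3b5, a steroid dehydrogenase, was at 0.185 to 5.91 CPM in AAV8-GFP and 16.7 to 46.7 CPM in AAV8-AGXT mice (adjusted p = 0.0341). Moxd1 was at no more than 0.117 CPM in AAV8-GFP mice and at 1.03 to 9.44 CPM in AAV8-AGXT mice (adjusted p = 0.0276). The oxysterol hydroxylase Cyp7b1, the organic anion carrier Slco1a1 and the peroxisomal hydrolase Nudt7 were called with log2 fold changes of 1.71, 1.78 and 1.504 (adjusted p = 0.0425, 0.0456 and 0.0348).

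Of 18 female-biased genes, 11 were tested and 1 was called, with a median log2 fold change of 0.32, where 4.35% of all genes tested were called. The called gene was Cyp2c40, which rose from 0.93 ± 0.443 to 4.61 ± 2.75 CPM (SD, n = 4 each; adjusted p = 0.0376). It is a member of the Cyp2c cluster with close paralogs, and its count is uncertain.

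**Figure D4:**
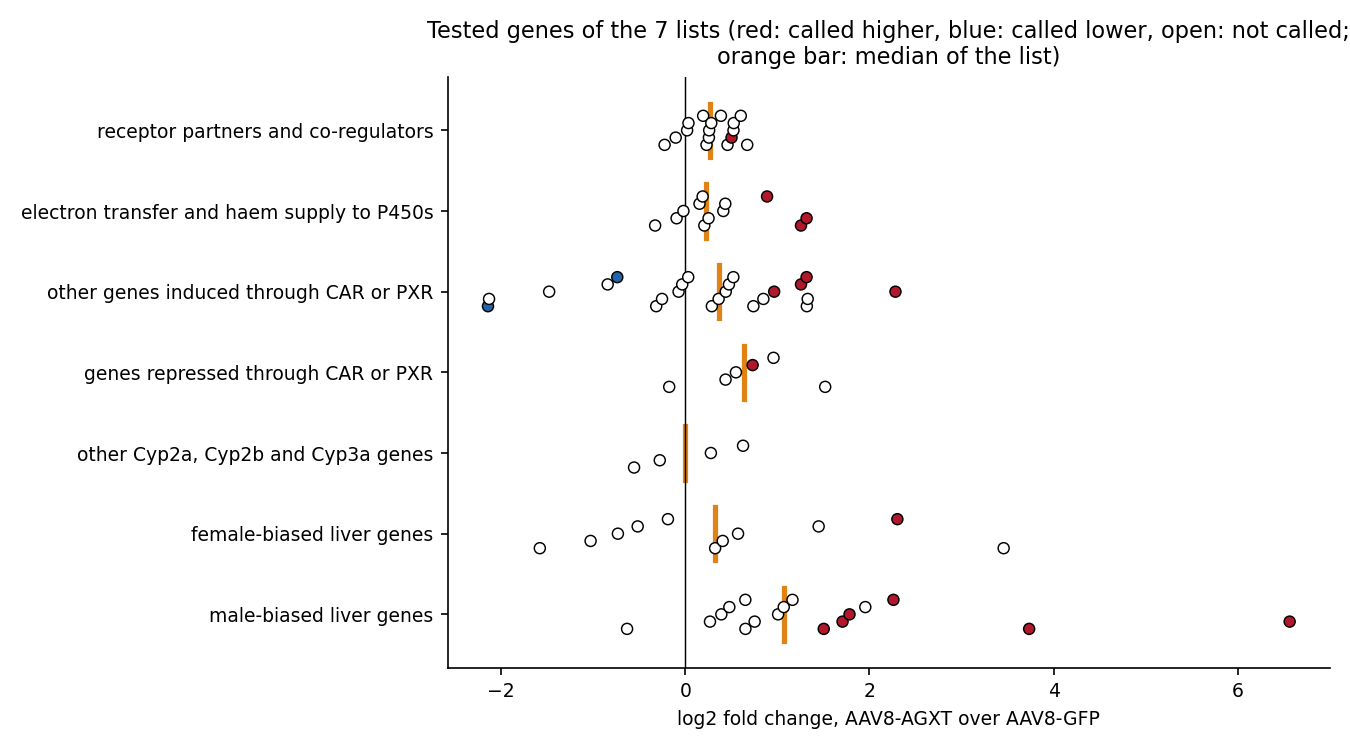
Log2 fold change of AAV8-AGXT over AAV8-GFP for each tested gene of the 7 gene lists, with called genes filled and the median of each list as an orange bar. The male-biased genes had the highest median at 1.07, and the genes induced through CAR or PXR held called genes on both sides, from -2.14 for Gstm3 to 2.28 for Cyp2c37.

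Calls in these lists also rested on single mice, as did those over all genes. Over all genes, 664 were called with every mouse, but 2 without mouse 311, 15 without mouse 314 and 14 without mouse 319. Without mouse 311 no list held a called gene, and without mouse 314 or mouse 319 Cyp2c37 was the single gene called in any of them. Without mouse 303 the male-biased list had 2 calls, and without mouse 308 it had 1. Without mouse 303 or 315 Cebpa lost its call, and so it did without mouse 308 or 309. Cpt1a and Cyp2c40 lost theirs without mouse 303, 315 or 308. Alas1 did so without mouse 303 or 309, Cpox without mouse 308, Gstm3 without mouse 308 or 316, Gstm1 without mouse 303, 315, 308 or 316, and Ugt1a1 without mouse 303, 315, 308 or 309.

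Markers of other cells and of the zones of the lobule were summed in each mouse. Of all genes tested, 4.35% were called. All 9 pericentral hepatocyte markers had higher means in AAV8-AGXT mice, with 3 called higher, and their sum was 8240 to 10113 CPM in AAV8-GFP and 16303 to 21200 CPM in AAV8-AGXT mice. The 8 periportal markers summed to 3566 to 6303 CPM and 5681 to 7354 CPM, with 1 called higher. Of these 8, 7 had higher means and 1 a lower mean. The 7 stellate cell markers summed to 504 to 889.9 CPM in AAV8-GFP and 196 to 555 CPM in AAV8-AGXT mice, with 1 called lower. Among them 6 had lower means and 1 a higher mean. The 5 cholangiocyte markers summed to 225 to 673 CPM and 74.1 to 272 CPM. Most of this sum was Spp1 alone, at 201 to 611 CPM and 60.3 to 239 CPM. The 6 macrophage markers summed to 444 to 773 CPM and 205 to 589 CPM. All 5 cholangiocyte markers had lower means, whereas 4 macrophage markers had lower and 2 had higher means. In both lists 0 were called. The 5 endothelial markers summed to 109.8 to 164.3 CPM and 113 to 215 CPM, with 5 higher means and 0 called. No marker of these lists was at 0 in any library. Mouse 308, with the highest Nr1i3, had the highest pericentral sum and the lowest stellate, cholangiocyte and macrophage sums, and the part of these markers in the values of the 10 genes was not tested.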

How the data were processed

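Paired-end stranded mRNA libraries of liver, 1 per mouse, were trimmed by the authors with Trimmomatic 0.35, mapped with HISAT2 2.1.0.13 to GRCm38 with Ensembl release 90, and counted on genes with HTSeq-counts 0.6.0. The strand setting and overlap mode are not given in the sources used here. The deposited values are raw counts per gene, without normalization. The authors tested differential expression with DESeq2.

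Here, counts were analysed in R 4.3.3 with edgeR 4.0.16 (filterByExpr, TMM, quasi-likelihood fit, treatment as the only term, Benjamini-Hochberg adjustment over 15248 genes, adjusted p under 0.05 called). Log2 fold changes used a prior count of 0.125 and log2 CPM a prior count of 2. The common biological coefficient of variation was 23.3%, so that the spread between mice limits the precision for all but the scarcest genes. Positions are from GENCODE M21 on GRCm38, and upstream windows from RefSeq on GRCm38.p6.

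The 10 genes and the lists were chosen with earlier results of these data known. Named were the 10 genes, up to 5 called genes of each list by smallest p, the other Cyp2a, Cyp2b and Cyp3a genes in full, and the 5 nearest profiles of Nr1i3 and Cyp2b10, while those of Nr1i2 are not reported here. Alternatives were DESeq2 1.42.0, limma-voom (limma 3.58.1), other scalings and filters, robust estimation, and each mouse left out. Mice were grouped by the labelled treatment and none was left out. The script was tested on simulated data.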

Additional observations from a re-analysis of the deposited data

Results flagged for a closer look

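In a group of 4 mice, a value was singled out when its gap to the nearest other value was so large a part of the range of the group that it passed Dixon's 95% critical value, which chance gives in about 1 of 20 groups. Of 48 groups examined, 2 had such a value. Cyp3a13 was at 237.8 CPM in AAV8-AGXT mouse 319, with a gap of 0.854 of the range, while the other AAV8-AGXT mice were between 138.1 and 152.7 CPM. Cyp2b13 was at 0.0944 CPM in the same mouse, which is 2 read pairs, while the other 3 had 0.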

How the results depend on the processing

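The number of genes called, 664 with 56.3% of them higher, was 2131 by the DESeq2 Wald test and 1001 with library totals, where 14.4% were higher, and upper-quartile scaling gave 552 with 46.0% higher. Leaving out each mouse in turn gave 2 (without mouse 311) to 643 genes. Of the 10 genes, 2 were called, 4 by DESeq2 (Nr1i3, Cyp2a4, Cyp2a5 and Cyp3a25), and 1 (Cyp2a4) by limma-voom, robust estimation, DESeq2's size factors, upper-quartile scaling or library totals. Without a filter on low counts 3 were called (Nr1i3, Cyp2a4 and Cyp2a5). With at least 10 counts in every mouse edgeR called 0 of the 6 left, of which 3 had an unadjusted p under 0.05, and leaving out each mouse in turn gave 0 to 3 calls. Partners of the receptors gave 3 calls by DESeq2, 2 by limma-voom or robust estimation and 0 with library totals. Genes induced through CAR or PXR gave 14 by DESeq2, repressed genes 2 by DESeq2 and 0 with library totals, female-biased genes 3 by DESeq2 and 2 without a filter, and male-biased genes 3 with at least 10 counts in every mouse. With each mouse left out, the calls ranged from 0 to 1 for partners, repressed genes, female-biased genes and other Cyp genes, from 0 to 4 for haem supply, and from 0 to 5 for induced and for male-biased genes. The cause was not tested. No called gene of the 10 changed sign under any alternative run. The log2 fold change of Nr1i3 was between 1.03 and 1.68, that of Cyp3a11 between -0.65 and -0.17, and that of Nr1i2 between -0.13 (library totals) and 0.20. Cyp2a4 reached -3.15 without mouse 316. No paired analysis was possible because the groups share no animal numbers. Cyp2a4 and the Cyp2b genes rest on at most 81 read pairs in any mouse.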

Other observations

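The PAR bZIP factors Dbp, Tef and Hlf, clock-controlled regulators known to drive Nr1i3 in mouse liver, were looked at after their values were seen. Dbp was at 3.44, 7.28, 26.5 and 32.8 CPM in AAV8-GFP mice 303, 311, 314 and 315 and at 62.1, 62.7, 68.2 and 84.7 CPM in AAV8-AGXT mice 308, 309, 316 and 319 (edgeR adjusted p = 0.0724, not called). Tef ranged from 42.6 to 104.5 CPM and from 122.9 to 206.7 CPM (adjusted p = 0.0429), and Hlf from 22.3 to 33.1 CPM and from 41.9 to 54.7 CPM (adjusted p = 0.0278), both called higher by edgeR. None of the 3 overlapped between the groups, where 16.6% of all genes tested did not overlap. The PAR bZIP-type motif TTATGTAA occurred in 0.938% of all windows and was not found in that of Nr1i3. That absence says only that these letters were not in the window. The part of Dbp, Tef and Hlf in the values of Nr1i3 was not tested.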
